A study of Homo sapiens with 12 samples.

Results

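The superoxide dismutases, catalase and the main intracellular peroxidases are the enzymes that remove superoxide and peroxides from a cell. Their mRNAs were followed here through 10 genes taken by name from the deposited gene tables: SOD1, SOD2, CAT, GPX1, GPX4, PRDX1, PRDX2, PRDX3, PRDX5 and PRDX6, of 36963 genes in all. All 10 were found and all 10 passed the filter on low counts, among 14804 genes tested. The cells were U251-MG, a human astrocytoma line that the labels list as astrocytes, kept in medium with 2% serum, either as it was (control) or with 100 µM manganese chloride. From each treatment, poly(A) RNA of the cleared lysate (input) and RNA recovered with an antibody against YTHDF2 (immunoprecipitate, IP) were sequenced, in 3 libraries for each of the 4 groups. The study asked which mRNAs YTHDF2 binds and whether manganese, a metal toxic to the nervous system in excess, releases them. All groups are the same tumour line, no IP with a control antibody is named in the labels, and the labels say nothing on how long manganese was present or on separate cultures for the 3 libraries of a group. The p-values below therefore measure only the spread between these libraries, which may be technical.

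Superoxide formed by the respiratory chain and by oxidases is turned into hydrogen peroxide by superoxide dismutases. SOD1 is the copper and zinc enzyme of the cytosol, and SOD2 is the enzyme of the mitochondrial matrix, which carries manganese in its active site. Hydrogen peroxide is then removed by catalase (CAT) in peroxisomes, by glutathione peroxidases and by peroxiredoxins, most of which are recharged by thioredoxin. GPX1 and GPX4 are selenoproteins that use glutathione. In brain, astrocytes are known for their high antioxidant capacity and for supplying neurons with glutathione precursors. YTHDF2 is a cytoplasmic protein that binds mRNA methylated on N6 of adenosine and brings it to the decay machinery.

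Estimated gene counts ran from 16683984 to 28425552 per library. Control IP 3 had 56.88% of its fragments aligned, against 83.7% to 87.12% in the other 11 libraries, and it stood apart for several genes below, so results that rest on it are given with and without it. PCGF6 alone made up 34.28% to 41.77% of every total. Of 8 astrocyte markers, 6 were above 1 CPM (counts scaled to library size) in the control input, with GFAP at 1733 CPM, while AQP4 was at 0 in every library and ALDH1L1 stayed at or below 0.864 CPM. All 4 markers of astrocytoma lines (VIM, NES, CD44 and FABP7) were present. With manganese, 3 of 7 tested astrocyte markers fell in the input and 1 rose, where 3.63% of all tested genes fell and 11.3% rose. GFAP averaged 214 CPM there, and S100B and SOX9 also fell, while GJA1 rose from 115 to 412 CPM. Of the 4 line markers 2 rose, NES from 389 to 1486 CPM and CD44 from 841 to 2514 CPM. FABP7 went the other way without passing, from 180 to 89.8 CPM. The part of these changes in the results below was not tested. Of 5 neuron markers, 2 were above 1 CPM in the control input, SYT1 at 2.01 CPM and GAD1 at 1.08 CPM, while RBFOX3 was at 0 throughout. Of 5 microglia markers, 0 were above 1 CPM there, and AIF1 and CX3CR1 were at 0 in every library. Among 4 epithelium markers 1 was above it, KRT18 at 18.2 CPM.

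Per unit of transcript length, PRDX1 was the most abundant of the 10 mRNAs in the control input. GPX1 was the least abundant as its reads were assigned. In TPM, the deposited level corrected for transcript length, PRDX1 stood at 506 ± 31.9 in the control input (SD, n = 3). PRDX1 is the major peroxiredoxin of the cytosol. It was followed by PRDX2 (160 ± 24.7), PRDX6 (155 ± 7.9) and SOD1 (140 ± 10.7), all of them enzymes found mainly in the cytosol, whose ranges overlapped between neighbours in that order. PRDX3 (70.1 ± 9.39), PRDX5 (68.4 ± 14.8), GPX4 (49.9 ± 2.7) and SOD2 (45.3 ± 8.99) came next, again with overlapping ranges between neighbours. PRDX3 and SOD2 are imported into mitochondria, and PRDX5 and GPX4 have mitochondrial as well as other forms. CAT at 23.9 ± 0.417 TPM and GPX1 at 15.8 ± 1.19 TPM closed the order, each with a range apart from its neighbours. GPX1P1, a pseudogene of GPX1 listed apart, stood at 18.2 ± 6.53 TPM in the control input. Its reads cannot be separated cleanly from those of GPX1, so the order of GPX1 and CAT depends on how they were split. The 10 genes together took 1220 to 1259 TPM of a control input library. In the IP of manganese-treated cells PRDX1 was still highest (490 ± 45.8 TPM), and CAT (1.87 ± 0.25 TPM) had become the lowest.

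**Figure D1:**
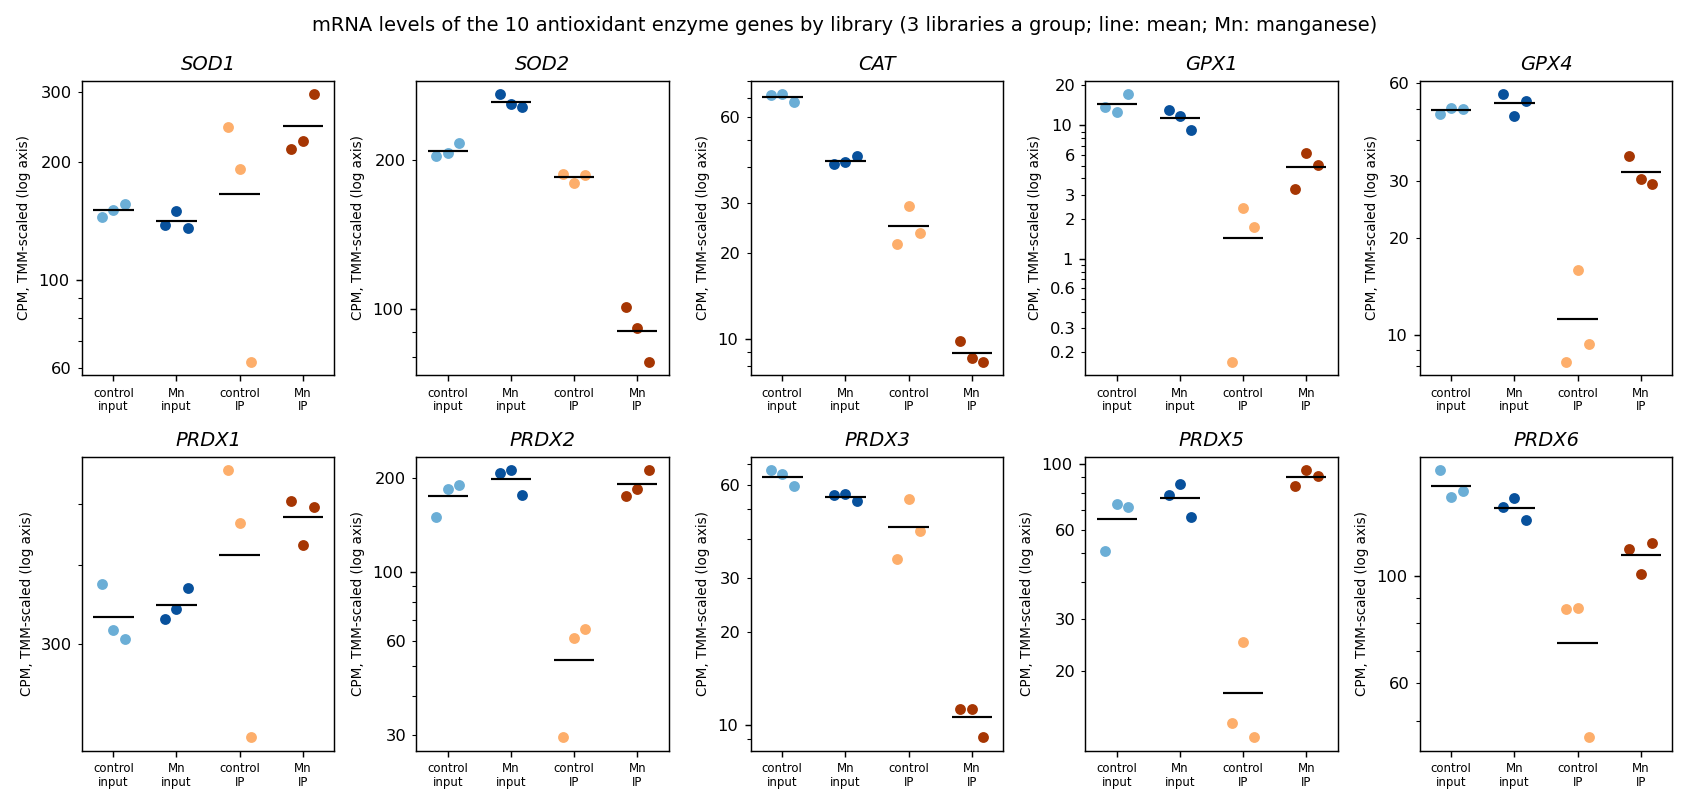
Level of each of the 10 mRNAs in all 12 libraries, as CPM scaled by TMM factors on a log axis, with 1 point per library and a line at the mean of the 3 libraries of a group. Inputs (blue) of both treatments lie close together except for CAT and SOD2, while the IP libraries (orange and brown) move up with manganese for GPX4, PRDX2 and PRDX5 and down for SOD2, CAT and PRDX3.

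In control cells most of these mRNAs were scarcer in the YTHDF2 IP than in the input. Between the IP and the input, 7 of 10 were lower and 0 were higher (edgeR quasi-likelihood test, Benjamini-Hochberg adjusted p under 0.05 over all tested genes), where 31.3% of all tested genes passed, 14.2% of them in the lower direction and 17.2% in the higher. The 7 were CAT, GPX1, GPX4, PRDX2, PRDX3, PRDX5 and PRDX6. The median log2 ratio of IP to input was -1.30 over the 10 genes and 0.04 over all tested genes. Among all tested genes, the 3 shortest of 10 classes of transcript length had medians of -0.79, -0.63 and -0.49. All members but CAT and SOD2 lay in these classes, so the all-gene values are not matched to them in length. With a correction for length CAT, GPX1, GPX4, PRDX2, PRDX5 and SOD2 passed as lower and PRDX1 as higher. PRDX3, PRDX6 and SOD1 did not pass. The part of length in the median of the 10 genes was not tested. For 8 of 10 the control IP and control input libraries did not overlap, against 43.8% of tested genes, and all 8 were lower, against 21.2%. Since each library is scaled to its own total, a ratio says how an mRNA was recovered relative to the rest, and recovery by YTHDF2 cannot be told apart from carry-over without a control antibody.

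Both glutathione peroxidases were scarce in the control IP. GPX1, the abundant cytosolic glutathione peroxidase of many tissues, was at 13.8, 12.6 and 17.1 CPM in control input 1 to 3 and at 0.169, 2.42 and 1.72 CPM in control IP 1 to 3. The lowest of these values rests on 4 counts (exact Poisson 95% interval 1.09 to 10.2 counts, counting error only). All IP values lay far below all inputs, with a log2 ratio of -3.33 ± 0.62 (SE, adjusted p = 0.00113). GPX4, the enzyme that reduces lipid hydroperoxides in membranes and guards against ferroptosis, was at 48.4, 50.5 and 49.9 CPM in the control inputs and at 8.27, 15.9 and 9.34 CPM in the control IPs. Its log2 ratio was -2.15 ± 0.23 (adjusted p = 2.17e-05), and -1.54 with the length correction.

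Among the peroxiredoxins, PRDX5 and PRDX2 were poorly recovered and PRDX1 was not. PRDX5, found in mitochondria, peroxisomes and cytosol, was at 50.9, 73.3 and 71.7 CPM in the inputs and 13.3, 25 and 11.9 CPM in the IPs of control cells (log2 ratio -1.96 ± 0.26, adjusted p = 9.48e-05). PRDX2, a cytosolic enzyme abundant in red cells and neurons, was at 150, 185 and 190 CPM in the inputs and 29.5, 61.4 and 65.7 CPM in the IPs (-1.75 ± 0.25, adjusted p = 0.000159). For both genes every IP library was below every input. PRDX6, which works with glutathione rather than thioredoxin and also has phospholipase activity, went from 166, 146 and 150 CPM to 85.5, 85.7 and 46.3 CPM (-1.09 ± 0.21, adjusted p = 0.00128). With the length correction PRDX6 did not pass (-0.46, adjusted p = 0.1). PRDX3, the mitochondrial peroxiredoxin, had the ratio closest to 0 among the called genes, with 66.9, 64.8 and 59.3 CPM against 34.5, 53.9 and 42.5 CPM (-0.55 ± 0.18, adjusted p = 0.0342). That call was lost in 7 of 24 alternative settings, among them leaving out any of the control inputs or control IP 1 and a correction for transcript length, where the ratio was -0.07. With limma on log2(TPM + 1) it was -1.38 (adjusted p = 0.00661).

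CAT was lower in the control IP, at 21.5, 29.3 and 23.5 CPM against 71.8, 72 and 67.6 CPM in the inputs (-1.51 ± 0.17, adjusted p = 2.62e-05). SOD2 stood at 204, 207 and 217 CPM in the inputs and at 188, 180 and 187 CPM in the IPs, groups that did not overlap but whose log2 ratio of -0.18 ± 0.14 did not pass (adjusted p = 0.366). It passed as lower in 3 of 24 settings, at -0.49 with total counts (adjusted p = 0.0206), where the median of all genes was -0.26, at -0.57 with the length correction (adjusted p = 0.00389) and at -0.69 with limma on log2(TPM + 1) (adjusted p = 0.00616).

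SOD1 and PRDX1 did not pass in control cells, and the values of both moved with control IP 3. SOD1 was at 145, 151 and 156 CPM in the inputs and at 244, 191 and 62.2 CPM in the IPs (0.14 ± 0.34, adjusted p = 0.81). PRDX1 was at 373, 316 and 306 CPM in the inputs and 565, 467 and 214 CPM in the IPs (0.33 ± 0.26, adjusted p = 0.393). In both, control IP 3 lay below all inputs while control IP 1 and 2 lay above them. Without control IP 3, both passed as higher in the IP, SOD1 at 0.53 ± 0.15 (adjusted p = 0.0115) and PRDX1 at 0.64 ± 0.13 (adjusted p = 0.00112). In that fit 9 of 10 genes were called, 2 of them higher, and the share of all tested genes in it is not given here. With all libraries kept, PRDX1 also passed as higher under the length correction (1.12 ± 0.25, adjusted p = 0.00465), where SOD1 did not (0.71 ± 0.34, adjusted p = 0.147).

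**Figure D2:**
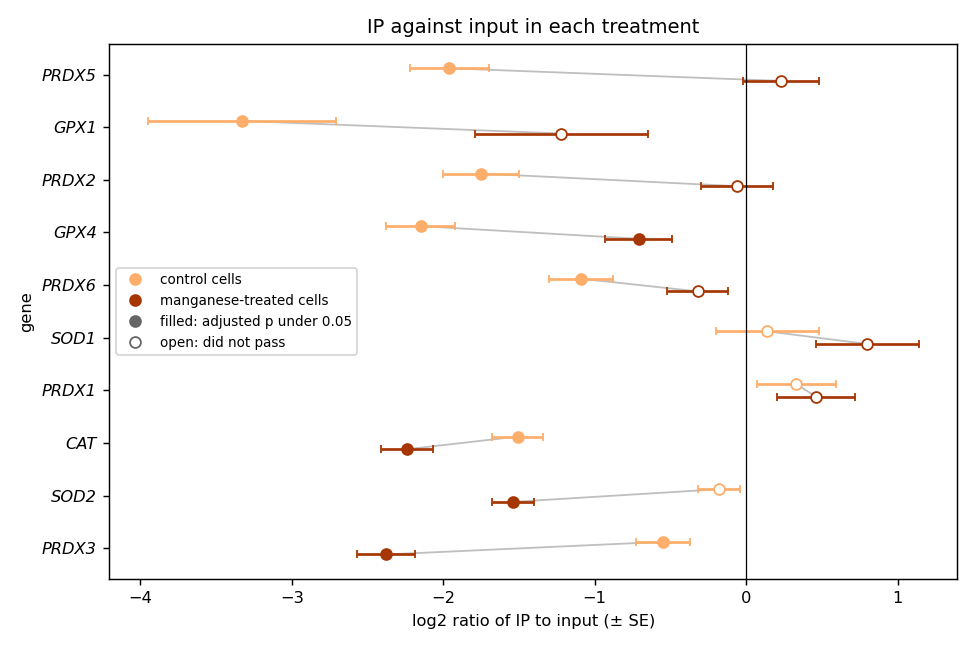
Log2 ratio of IP to input (± SE, n = 3 libraries a group) for each gene in control and in manganese-treated cells, joined by a line, with filled points for adjusted p under 0.05. Control ratios of GPX1, GPX4, PRDX2 and PRDX5 lie between -3.33 and -1.75, and with manganese PRDX2 and PRDX5 lie near 0 while SOD2, CAT and PRDX3 move to -1.54 or below.

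In the input, which holds the mRNA of the cleared lysate, manganese changed CAT and no other of the 10 genes at the threshold. CAT was at 71.8, 72 and 67.6 CPM in control input and at 40.9, 41.8 and 43.6 CPM in manganese input, so that all manganese libraries lay below all controls. The log2 change was -0.74 ± 0.16, a 1.67-fold lower level (adjusted p = 0.0066). Whether fewer cells held the mRNA or each cell held less cannot be told apart in bulk RNA. It passed in all 24 alternative settings, between -1.19 and -0.72. This count of 1 of 10, which is lower, stands beside 15.0% of all tested genes that passed, 11.3% higher and 3.63% lower.

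SOD2, the manganese-bearing dismutase, was at 272, 260 and 257 CPM in the manganese input against 204, 207 and 217 CPM in control input. The groups did not overlap, but the log2 change of 0.33 ± 0.14 did not pass (adjusted p = 0.141). It passed with the 6 input libraries fitted alone (0.31, adjusted p = 0.0163) and without control IP 3 (0.33, adjusted p = 0.0402), while total-count scaling gave -0.12. Under total-count scaling the median of all genes moved from -0.04 to -0.49, and relative to that median SOD2 remained the higher. Of the other genes, PRDX3 was at 55.4, 55.8 and 53.3 CPM with manganese, below its controls in every library (-0.21 ± 0.18, adjusted p = 0.548). PRDX6 was likewise lower in each library, at 139, 145 and 131 CPM (-0.15 ± 0.20, adjusted p = 0.748). The manganese and control inputs did not overlap for 4 of 10 genes, against 44.8% of tested genes, and 3 of these (CAT, PRDX3 and PRDX6) were lower, against 21.4%. SOD1, GPX1, GPX4, PRDX1, PRDX2 and PRDX5 had overlapping inputs and log2 changes from -0.36 to 0.23.

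Because CAT was the member whose mRNA level in the input passed the test, the 250 bases before its start are shown, from RefSeq on GRCh38.p14 (chr11:34438684-34438933, plus strand), 5′ to 3′. Capitals mark the matches to CCAAT, read on either strand as CCAAT or ATTGG, and to GGGCGG, the core of a GC box:
CAT: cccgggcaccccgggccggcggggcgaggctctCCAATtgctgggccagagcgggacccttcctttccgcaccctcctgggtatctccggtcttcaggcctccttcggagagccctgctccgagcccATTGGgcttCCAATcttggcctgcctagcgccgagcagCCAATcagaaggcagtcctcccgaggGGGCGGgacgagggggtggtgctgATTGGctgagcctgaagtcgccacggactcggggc

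The stretch held 5 matches to CCAAT, starting 217, 123, 114, 85 and 35 bases before the start, and 1 to GGGCGG, 59 bases before it. No match overlapped another. Among the 10 genes, 7 (all but SOD1, PRDX1 and PRDX6) matched the RefSeq table, with 13 windows of 300 bases that run from 250 bases before a start to 50 after it. GGGCGG on either strand was in 13 of 13 windows, against 45.0% of 35116 windows of all genes, and CCAAT was in 5 of 13, of CAT, GPX4 and SOD2, against 34.6%. TGACNNNGC, the core of the antioxidant response element that NRF2 binds, was in 0 of 13 (13.3% of all windows). TGTTTAC, a FOXO site, was also in 0 of 13 (3.42% of all windows). The 13 windows come from 7 genes, so windows of the same gene are not separate observations. Counted by gene, GGGCGG was in 7 of 7, CCAAT in 3, and TGACNNNGC and TGTTTAC in 0. These are matches of letters in these windows and say nothing of whether a factor binds there or elsewhere.

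In the manganese-treated cells, SOD2, CAT, PRDX3 and GPX4 were scarcer in the IP than in the input. IP and input differed for 4 of 10 genes, all lower, where 32.4% of tested genes passed, 17.6% lower and 14.8% higher. The median log2 ratio was -0.52 for the 10 genes and -0.03 for all tested genes. In the 3 shortest classes of transcript length the medians of tested genes were -0.40, -0.34 and -0.22. Of the 10 genes, 8 had groups that did not overlap, against 54.0% of tested genes, 6 of them lower, against 29.2%. PRDX3 had the lowest ratio, -2.38 ± 0.19 (adjusted p = 4.27e-06), followed by CAT at -2.24 ± 0.17 (adjusted p = 3.41e-06) and SOD2 at -1.54 ± 0.14 (adjusted p = 9.01e-06). GPX4 was at -0.71 ± 0.22 (adjusted p = 0.0256), a call lost in 6 of 24 settings. GPX1 at -1.22 ± 0.57 (adjusted p = 0.125), PRDX6 at -0.32 ± 0.20, PRDX2 at -0.06 ± 0.24 and PRDX5 at 0.23 ± 0.25 did not pass. SOD1 (0.80 ± 0.34, adjusted p = 0.0952) and PRDX1 (0.46 ± 0.26, adjusted p = 0.209) were higher in every manganese IP than in any manganese input without passing. The spread of control IP 3 enters this fit through the estimate shared by all groups. Without that library 7 genes passed, with SOD1 and PRDX1 higher (adjusted p = 0.000316 and 0.00573) and PRDX6 lower (adjusted p = 0.0205), and the 6 libraries of manganese-treated cells fitted alone gave 8. Shares of all tested genes in those fits are not given here. With the length correction 3 genes were higher, SOD1 (1.16, adjusted p = 0.0189), PRDX1 (0.99, adjusted p = 0.00797) and PRDX5 (0.63, adjusted p = 0.0336), and 3 lower, since GPX4 did not pass (-0.34, adjusted p = 0.206).

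Set against the control IP, the manganese IP held more of 5 mRNAs and less of 3. The 5 higher were GPX1, GPX4, PRDX2, PRDX5 and PRDX6, and the 3 lower were SOD2, CAT and PRDX3, 8 of 10 in all, where 42.9% of tested genes passed, 20.4% higher and 22.5% lower. The same 8 genes had groups that did not overlap, against 49.7% of tested genes. The median log2 change was 0.59 for the 10 genes and -0.09 for all tested genes.

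PRDX5 rose most. It was at 84, 95.3 and 91 CPM in manganese IP 1 to 3, where the control IPs had 11.9 to 25 CPM, a log2 change of 2.43 ± 0.27 or 5.37-fold (adjusted p = 1.19e-05). PRDX2 stood at 175, 185 and 212 CPM, above every control IP, and its change was 1.87 ± 0.25 or 3.65-fold (adjusted p = 6.09e-05). Both overlapped their own manganese inputs. GPX4 was at 35.8, 30.4 and 29.3 CPM (1.51 ± 0.23, adjusted p = 0.000144), above every control IP and below every input. PRDX6 was at 114, 101 and 117 CPM (0.61 ± 0.21, adjusted p = 0.028), a call lost in 4 of 24 settings, the length correction and total-count scaling among them.

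GPX1 was at 3.33, 6.22 and 5.01 CPM in the manganese IPs, on 81, 130 and 111 counts, above all control IPs (1.76 ± 0.60, adjusted p = 0.0298), a call lost in 6 of 25 settings, among them leaving out manganese IP 2 (1.51, adjusted p = 0.099) or manganese IP 3 (1.71, adjusted p = 0.0668). Reads of this gene cannot be separated cleanly from those of GPX1P1, a pseudogene listed apart, which held 32.5% to 53.4% of the counts of the pair in the inputs and 23.3% to 69.2% in the IPs. With the pair summed, an alternative chosen after seeing the data, the change was 2.09 ± 0.52 (adjusted p = 0.0053). The 13 other pseudogene rows of these genes had at most 20 counts in any library.

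PRDX3 fell most, to 11.3, 11.3 and 9.12 CPM in the manganese IPs, all below the lowest control IP (34.5 CPM), a log2 change of -2.05 ± 0.19 or 4.13-fold lower (adjusted p = 3.18e-06). CAT fell to 9.79, 8.57 and 8.31 CPM (-1.48 ± 0.17, adjusted p = 1.74e-05), while its input was lower as well. SOD2 fell to 101, 91.8 and 78.4 CPM, a 2.04-fold lower level (-1.03 ± 0.14, adjusted p = 5.77e-05), while each of its manganese inputs was above every control input. SOD1, at 215, 226 and 296 CPM, and PRDX1, at 505, 431 and 494 CPM, overlapped their control IPs and did not pass (adjusted p = 0.205 and 0.593). Without control IP 1 SOD1 passed (0.95 ± 0.32, adjusted p = 0.0305), and without control IP 3 its change was 0.17 ± 0.15 (adjusted p = 0.395).

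**Figure D3:**
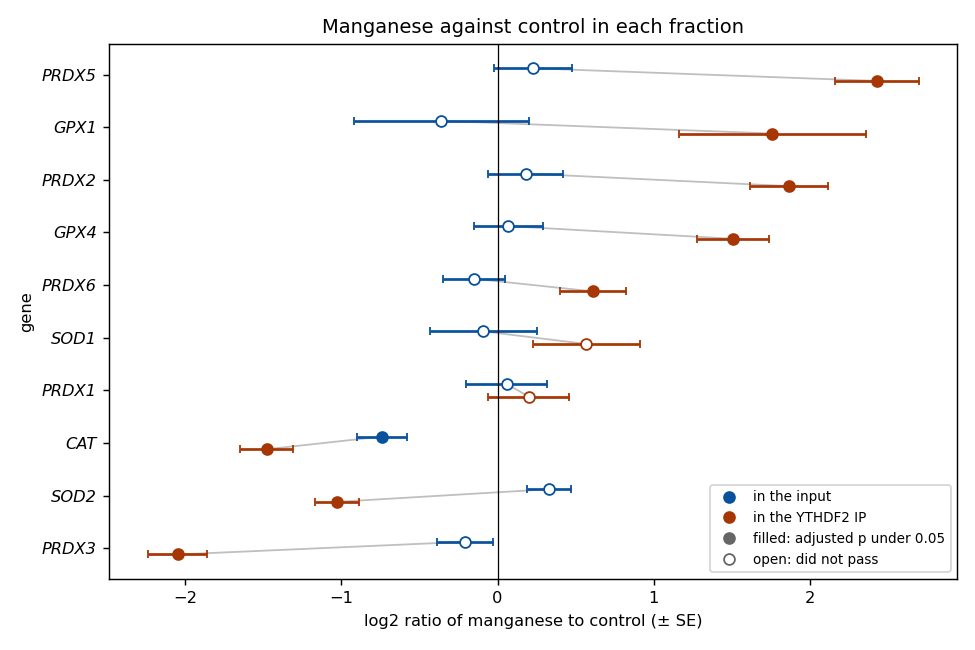
Log2 ratio of manganese to control (± SE, n = 3 libraries a group) for each gene in the input (blue) and in the YTHDF2 IP (brown), with filled points for adjusted p under 0.05. Input ratios lie between -0.74 and 0.33, while IP ratios range from -2.05 for PRDX3 to 2.43 for PRDX5.

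The change of recovery, which is the log2 IP-to-input ratio of manganese-treated cells minus that of control cells, was tested as an interaction. It passed for 6 of 10 genes, 3 in each direction, where 17.1% of tested genes passed, 6.94% higher and 10.2% lower. Recovery rose for PRDX5 (2.19 ± 0.36, adjusted p = 0.00225), PRDX2 (1.69 ± 0.35, adjusted p = 0.00639) and GPX4 (1.44 ± 0.31, adjusted p = 0.00869). It fell for PRDX3 (-1.83 ± 0.26, adjusted p = 0.00143), SOD2 (-1.36 ± 0.19, adjusted p = 0.00143) and CAT (-0.73 ± 0.23, adjusted p = 0.0464). The median was 0.71 for the 10 genes and -0.17 for all tested genes. This test shares its libraries with the ratios above, so it adds the size of the difference and not a separate measurement.

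For PRDX5, PRDX2, GPX4, PRDX3 and SOD2 the change passed in each of 23 alternative settings, from 1.96 to 2.60, 1.43 to 1.98, 1.21 to 1.78, -2.03 to -1.64 and -1.40 to -1.01 in that order. CAT passed in 4 of 23, and its values ran from -0.80 to -0.35. PRDX6 (0.76 ± 0.29, adjusted p = 0.0885) did not pass as reported and passed in 10 settings, 0.52 ± 0.15 without control IP 3 among them (adjusted p = 0.0254). GPX1 (2.11 ± 0.82, adjusted p = 0.0938) passed in 6, one of them the sum with GPX1P1 (2.22 ± 0.70, adjusted p = 0.0451). SOD1 (0.66 ± 0.48, adjusted p = 0.393) and PRDX1 (0.14 ± 0.37, adjusted p = 0.857) passed in none. SOD1 gave 0.26 and PRDX1 -0.18 without control IP 3.

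**Figure D4:**
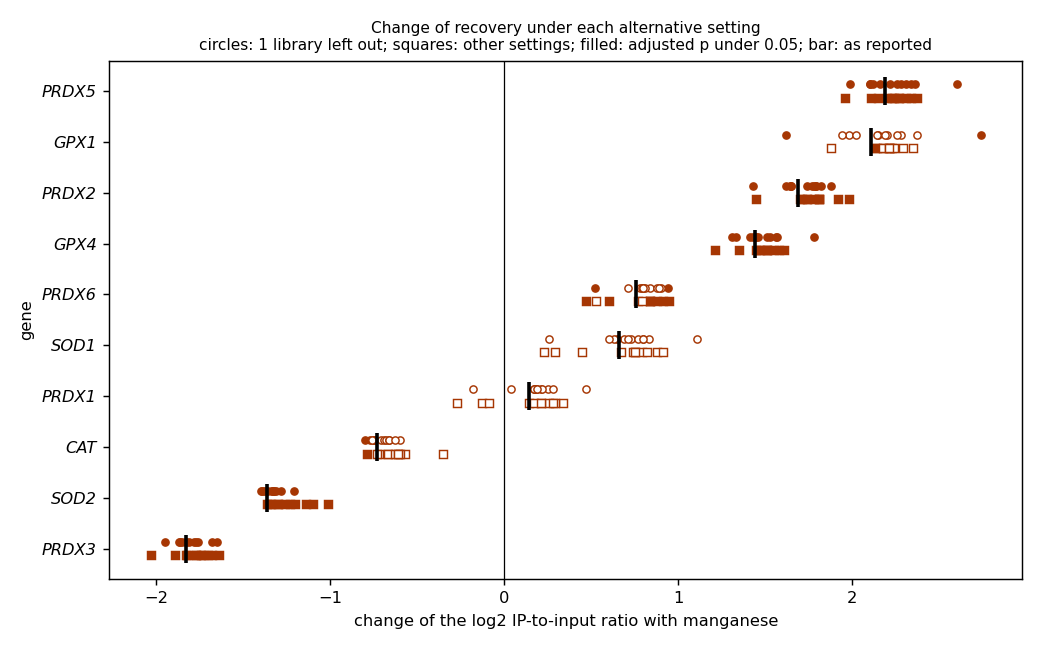
Change of the log2 IP-to-input ratio with manganese for each gene as reported (black bar), with 1 library left out (circles) and under other settings (squares), filled where adjusted p was under 0.05. The marks of PRDX5, PRDX2, GPX4, SOD2 and PRDX3 are all filled, those of CAT are mostly open and those of PRDX1 lie on both sides of 0.

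The direction differed between enzymes of the same compartment. Of the mitochondrial enzymes, SOD2 and PRDX3 were recovered less with manganese, whereas PRDX5 and GPX4, which have mitochondrial forms, were recovered more. Of the enzymes found in peroxisomes, CAT fell and PRDX5 rose. Transcript length went along with the direction over all tested genes. The median change of recovery was 0.31 for the 1480 genes with the shortest transcripts and -0.63 for the 1481 with the longest, and the control ratio of IP to input ran the other way, from -0.79 to 0.68. In length, from counts per TPM, PRDX5, GPX4 and PRDX2 lay at the 18.6, 19.8 and 22.7 percentile of tested genes, CAT at 60.5 and SOD2 at 81.5. PRDX3 was the exception to that order, with a fall at the 27 percentile. With a correction for length the changes were 1.96 for PRDX5, 1.45 for PRDX2, 1.21 for GPX4, -1.01 for SOD2 and -2.03 for PRDX3, all past the threshold, and -0.61 for CAT, which was not.

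**Figure D5:**
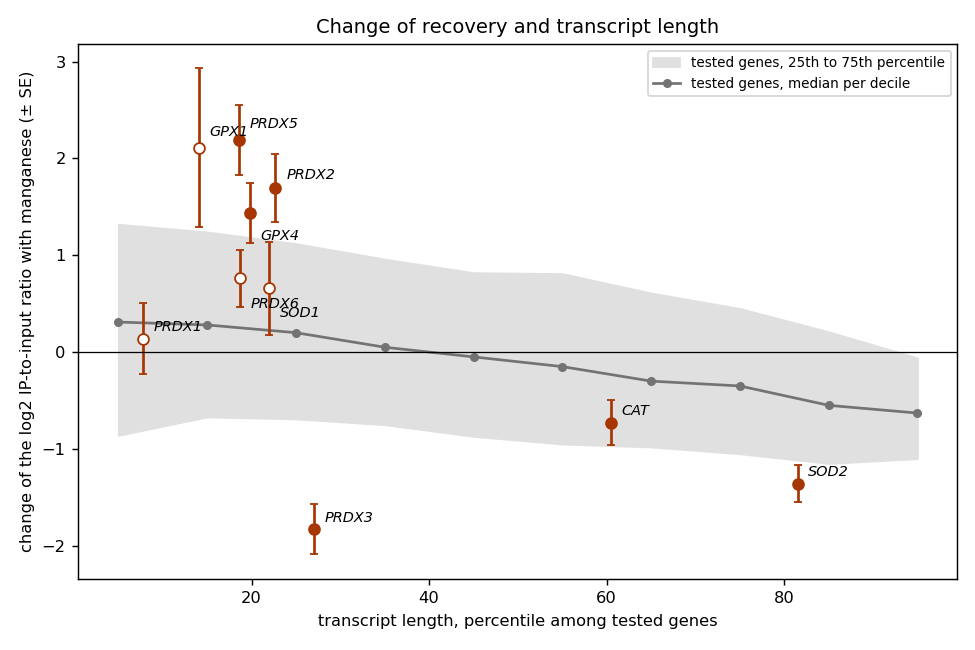
Change of the log2 IP-to-input ratio with manganese (± SE) for the 10 genes against the percentile of transcript length among tested genes, with the median and quartiles of all tested genes in 10 classes of length (grey), and filled points for adjusted p under 0.05. The grey medians run from 0.31 to -0.63, PRDX5, PRDX2, GPX4 and GPX1 lie above the grey band on the left, and PRDX3 and SOD2 lie below it.

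PRDX3 differed between libraries in which of its transcripts the quantification used. Counts per TPM, a measure of mean transcript length set to 1 in the control input, were 2.12, 2.09 and 2.05 in the manganese IPs and 2.10, 1.59 and 1.00 in control IP 1 to 3, against 1.11 to 1.18 in the manganese inputs. Reads of this gene were thus assigned to longer transcripts in 5 of 6 IP libraries than in any input, and control IP 3 was the one at the input value. For SOD1, CAT, GPX4, PRDX2 and PRDX5 the same measure stayed within 0.96 to 1.02 in every library. It varied for GPX1 as well, from 0.59 in control IP 1 to 1.44 in control IP 3 with a mean of 0.72 in the manganese IPs, and for SOD2 from 0.82 to 1.21. PRDX1 and PRDX6 lay between 0.92 and 1.02. Tested on TPM, which removes length, the change of recovery of PRDX3 was -1.74 (limma on log2(TPM + 1), adjusted p = 0.0336).

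The genes whose levels over the 12 libraries ran most like SOD2 were CLIC4, a chloride intracellular channel protein (Pearson r = 0.990 on log2 CPM), CASD1 (0.980) and CNN3, a calponin (0.979). CLIC4 averaged 361 CPM in control input, 487 in manganese input, 299 in control IP and 126 in manganese IP. For CAT they were BZW2 (0.991), NIPSNAP2 (0.984) and RBBP4 (0.984), of which NIPSNAP2, a mitochondrial protein, averaged 131, 87.4, 42.5 and 8.96 CPM in the same order. The 12 libraries fall into 4 groups, so these values describe the group pattern.

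These lists were read in the same fit, counting as above. Of 8 other members of the same families, 3 were tested. In the input 2 of these rose, both enzymes of the endoplasmic reticulum, and 1 was not called, beside 11.3% of all tested genes that rose. PRDX4, the peroxiredoxin of the endoplasmic reticulum, went from 22.6 ± 4.53 to 106 ± 15.9 CPM in the input with manganese (log2 change 2.23 ± 0.54, adjusted p = 0.0116) and was depleted in the IP of both treatments (-1.87 and -1.99). GPX8, a membrane-bound peroxidase of the same compartment, went from 57.1 ± 5.41 to 97 ± 8.6 CPM (0.76 ± 0.18, adjusted p = 0.00959), and its recovery fell (-1.16 ± 0.25, adjusted p = 0.00848). Of 8 tested genes whose products make superoxide or hydrogen peroxide, 2 rose in the input, beside 11.3% of all tested genes, and their median was 0.02. Those that rose were the oxidases of disulfide formation in the endoplasmic reticulum, ERO1A, from 92 ± 25.4 to 929 ± 157 CPM (3.34 ± 0.29, adjusted p = 6.58e-06), and ERO1B (1.51 ± 0.22, adjusted p = 0.000317). Of 13 peroxisome import and assembly genes, 1 fell in the input, PEX19 (-0.83 ± 0.21, adjusted p = 0.0165), where 3.63% of all tested genes fell and 15.0% passed in either direction, and the median was 0.05.

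Several glutathione genes rose in the input with manganese. Of 18 genes of glutathione synthesis and use, 5 rose and 0 fell, with a median log2 change of 0.42 against -0.04 over all tested genes, of which 11.3% rose and 3.63% fell. SLC3A2 and SLC7A11, the subunits of the cystine and glutamate exchanger, rose by 2.82 ± 0.23 (adjusted p = 3.97e-06) and 1.41 ± 0.20 (adjusted p = 0.00022). CHAC1, which degrades glutathione in the cytosol, rose by 2.30 ± 0.36 (adjusted p = 0.0006), and GGT1, the enzyme that starts its breakdown outside the cell, rose by 2.36 ± 0.55 from a low 1.15 ± 0.713 CPM (adjusted p = 0.00919). In the change of recovery, 3 of the 18 rose and 1 fell, with a median of 0.40 against -0.17 over all tested genes, of which 6.94% rose and 10.2% fell. Without control IP 3 the calls were 10 of 18 in the input and 8 of 18 in recovery. The shares above belong to the fit with all libraries and not to that one. GSTP1 (2.19 ± 0.35, adjusted p = 0.00206), GSTM1 (1.80 ± 0.41, adjusted p = 0.0111), both glutathione transferases, and CHAC1 (1.63 ± 0.49, adjusted p = 0.0378) rose. GCLC, the catalytic subunit of the rate-limiting enzyme of glutathione synthesis, fell (-1.41 ± 0.30, adjusted p = 0.00702). Of 8 selenoprotein synthesis genes, edgeR called 0 in the input (0 at an unadjusted p under 0.05, 0 by DESeq2, 1 by limma on TPM) and 0 in the change of recovery (1 at an unadjusted p under 0.05, 0 by DESeq2, 0 by limma), with medians of 0.06 and -0.35.

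Among 15 tested genes of the thioredoxin, glutaredoxin and sulfiredoxin system, which recharges peroxiredoxins, 2 rose and 1 fell in the input, where the median was 0.14 and 15.0% of all tested genes passed. SESN2, a stress-induced sestrin, rose by 2.72 ± 0.38 (adjusted p = 0.000239) and GLRX, a glutaredoxin, by 1.81 ± 0.39 (adjusted p = 0.00516), while SESN3 fell (-1.14 ± 0.13, adjusted p = 5.52e-05). Recovery rose for 2 and fell for 3, with a median of 0.12, where 17.1% of all tested genes passed. The mitochondrial partners of PRDX3, thioredoxin TXN2 (1.55 ± 0.34, adjusted p = 0.00919) and its reductase TXNRD2 (1.73 ± 0.48, adjusted p = 0.0266), rose where PRDX3 fell. Recovery of TXNRD1, the cytosolic reductase, fell (-1.88 ± 0.53, adjusted p = 0.0281), as did that of SESN3 (-0.82 ± 0.19, adjusted p = 0.00995) and SESN1 (-3.86 ± 1.22, adjusted p = 0.0452, at 0.802 ± 1.04 CPM in the manganese IP).

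NADPH, which both systems consume, comes from enzymes of which 12 were tested. In the input 1 rose, beside 11.3% of all tested genes, MTHFD2, a mitochondrial folate enzyme (1.15 ± 0.15, adjusted p = 0.000116). In the change of recovery 9 passed, 5 higher and 4 lower, with a median of 0.47, beside the 17.1% of all tested genes. Limma on TPM called 3. Those higher included enzymes of the pentose phosphate pathway, with TKT (1.86 ± 0.25, adjusted p = 0.00135), TALDO1 (1.80 ± 0.43, adjusted p = 0.0133) and PGD (0.91 ± 0.21, adjusted p = 0.0123), and IDH2 of mitochondria (1.21 ± 0.31, adjusted p = 0.0173). Lower were NNT, the mitochondrial transhydrogenase (-1.49 ± 0.22, adjusted p = 0.00158), IDH1 (-1.62 ± 0.31, adjusted p = 0.00435), MTHFD2 and NADK2. Of 4 genes of copper uptake and handling, the importer SLC31A1 rose in the input (1.18 ± 0.17, adjusted p = 0.000351), where 11.3% of all tested genes rose. The copper chaperone ATOX1 rose in recovery (1.54 ± 0.38, adjusted p = 0.0157), beside 6.94% of all tested genes. CCS and COX17 passed in neither.

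Of 16 transcriptional regulators of such genes, 3 rose and 2 fell in the input, where 11.3% of all tested genes rose and 3.63% fell. PPARGC1A, a coactivator known to raise SOD2 and CAT, fell from 27.3 ± 2.64 to 8.33 ± 1.4 CPM (-1.71 ± 0.22, adjusted p = 0.000103), and FOXO1, a factor known for targets that include CAT and SOD2, fell from 50.6 ± 2.5 to 21.6 ± 2.83 CPM (-1.23 ± 0.15, adjusted p = 8.67e-05). The small Maf proteins MAFF (1.98 ± 0.27, adjusted p = 0.000211), MAFK (1.70 ± 0.30, adjusted p = 0.00127) and MAFG (0.64 ± 0.19, adjusted p = 0.04) rose. In recovery 2 rose and 5 fell, beside 6.94% and 10.2% of all tested genes, with a median of -0.59. The fit without control IP 3 called 12 of 16, DESeq2 called 10 and limma on TPM called 5. The shares above do not belong to these fits. NFE2L2, which encodes NRF2, fell by 1.52 ± 0.24 on the log2 scale (adjusted p = 0.00189), HIF1A fell by 1.48 ± 0.23 (adjusted p = 0.0018) and FOXO1 by 0.88 ± 0.21 (adjusted p = 0.0139), while MAFK rose (2.57 ± 0.42, adjusted p = 0.00208). NFE2L2 itself was at 47.9 ± 2.82 CPM in control input and 40.2 ± 1.78 CPM in manganese input and did not pass there.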

How the data were processed

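Per the labels' protocols, libraries were made with a stranded mRNA kit from input and IP RNA and read as pairs. Per the submitters' processing notes, the authors used kallisto and hg19. The gene table deposited by the authors holds estimated counts (whole numbers), with a companion table in TPM made by the authors. Percent aligned comes from their deposited summary of fragments. Further steps were not given in the sources used here. Gene names came from the authors' deposited analysis table.

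From these, edgeR 4.0.16 (R 4.3.3) was run on the estimated counts: filterByExpr (minimum count 10, minimum total 15), TMM factors over 12 libraries, 1 fit with a mean per group, quasi-likelihood F tests for 5 contrasts, Benjamini-Hochberg adjustment over 14804 genes and a threshold of 0.05. SE is the log2 change divided by the root of F. Levels are TMM-scaled CPM or deposited TPM. The fit was tested on simulated data. Alternatives used DESeq2 1.42.0, limma 3.58.1 on log2(TPM + 1), other scalings and filters, a length correction, a replicate block and fits with libraries left out. Replicate numbers were not used to pair libraries in the main fit. The deviations of 18 same-numbered pairs from their group means correlated at -0.121 to 0.066 over all tested genes. Such values cannot decide whether same-numbered libraries came from 1 culture.

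The genes and the lists were chosen with earlier results of these data known. All 10 genes are named. Of each other list, up to 4 called genes with the smallest p per comparison are named, with others that a sentence needed, and some genes are not reported here.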

Additional observations from a re-analysis of the deposited data

Results flagged for a closer look

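The ratio of IP to input differed between control and manganese-treated cells for 6 of the 10 genes by the test of the difference itself (edgeR quasi-likelihood interaction, Benjamini-Hochberg adjusted p under 0.05 over all tested genes). The log2 difference was 2.19 for PRDX5, 1.69 for PRDX2 and 1.44 for GPX4, where the manganese ratio was the higher. It was -1.83 for PRDX3, -1.36 for SOD2 and -0.73 for CAT, where the manganese ratio was the lower. Across all tested genes 17.1% passed this test. The median over tested genes moved with transcript length, from 0.31 for the shortest 1480 genes to -0.63 for the longest 1481, and its part in these results was not tested beyond the length correction.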

How the results depend on the processing

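Over 50 gene-level results and up to 25 alternatives each, 1195 values were recomputed, of which 1046 kept their direction and side of the threshold, 43 fell short of it, 54 newly passed and 52 changed sign, all of the last from values that had not passed. The sign changes in the manganese input were for GPX4 (-0.0059 with RLE factors and with DESeq2, -0.38 with total counts, -0.014 with TMM without PCGF6, -0.029 with a filter of 1 CPM, -0.002 without control IP 3 and manganese IP 3 together, -0.41 with limma on log2(TPM + 1)), PRDX1 (-0.013, -0.013, -0.39, -0.017, -0.032, -0.0044 and -0.37 in the same order), and, with total counts and with limma, SOD2 (-0.12 and -0.093), PRDX2 (-0.27 and -0.30) and PRDX5 (-0.22 and -0.24). In control IP against input they were SOD1 (-0.24 with total counts, -0.038 with only the libraries compared, -0.34 with limma) and PRDX1 (-0.032 with total counts). In manganese IP against input they were PRDX2 (0.018 with TMM without PCGF6, 0.068 with the CPM filter, 0.29 with the length correction) and PRDX6 (0.075 with the length correction). For PRDX1, manganese against control in the IP gave -0.046 with total counts, -0.12 with the length correction, -0.11 without control input 1 and control IP 3 together, -0.094 without control IP 3 and manganese IP 3 together and -0.092 with limma, and its change of recovery gave -0.13 with the length correction, -0.27 and -0.089 with those pairs of libraries left out. With 1 library left out, values that changed sign ran from -0.28 to 0.53 for SOD1 (control IP against input), -0.12 to 0.03 for PRDX2 (manganese IP against input), -0.053 to 0.081 for GPX4 and -0.038 to 0.16 for PRDX1 (manganese input), and -0.12 to 0.47 (IP) and -0.18 to 0.47 (change of recovery) for PRDX1. The causes were not tested.

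The count of called genes in manganese IP against input, 4 as reported, was 8 with only the libraries compared, 7 with either pair of libraries left out and 3 to 7 with 1 library left out. In the manganese input, 1 as reported became 3 with total counts, 2 with only the libraries compared, 2 with limma on TPM, and 1 to 2 with 1 library left out. Counts in the other comparisons stayed within 1.5 times. Shares of all tested genes are not given beside these counts. With the replicate block 7, 4, 1, 8 and 5 genes were called, against 7, 4, 1, 8 and 6 without it, and CAT lost its change of recovery. The settings chosen after seeing the data were the sum of GPX1 and GPX1P1, and leaving out control IP 3 and manganese IP 3 together. Low counts limit GPX1 in the control IP.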
